A study of Mus musculus with 16 samples.

Results

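Collagen genes were taken as every row of the gene count table whose symbol has the form Col, a number, a and a number, which gave 44 genes of 41388. They were measured by RNA sequencing in quadriceps muscle of C57BL/6 mice at postnatal day 36 by the labels, from which the age given in the study's own text differs slightly. WT mice (wild type, on standard chow), WT + TAM mice (wild type, labelled WT_TAM), *Mtm1* KO mice (labelled mtm1 -/-, on standard chow) and KO + TAM mice (labelled KO_TAM) made up 4 groups of 4 libraries. Tamoxifen (TAM), a ligand of the estrogen receptors, was given in the chow at 40 mg/kg per day from day 21. *Mtm1* encodes myotubularin, a phosphoinositide phosphatase whose loss causes X-linked myotubular myopathy, and the KO line carries a targeted deletion of an *Mtm1* exon in the whole animal. The study left out the libraries WT replicate 1 and KO replicate 12, and the 14 others (3 WT, 4 WT + TAM, 3 KO and 4 KO + TAM) are used here unless stated.

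Collagens are secreted trimers of alpha chains wound into a triple helix. The fibrillar collagens I, III and V form the tensile fibers of muscle connective tissue. Collagen IV builds the meshwork of the basement membrane around each muscle fiber and capillary, collagen VI forms beaded filaments that link that membrane to the surrounding matrix, and mutations in *COL6A1*, *COL6A2* or *COL6A3* cause congenital muscular dystrophy. The short-chain collagens VIII and X form open networks, FACIT collagens sit on the surface of fibrils, and transmembrane collagens span the plasma membrane. Most collagen in muscle is made by fibroblasts, and the basement membrane chains are also made by muscle fibers and vessel cells.

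The 16 libraries held between 25116179 and 29847222 counts each. The muscle fiber genes *Acta1* and *Ckm* had a mean of 25110 and 15820 RPKM (reads scaled by library total and gene length), as the tissue label says. *Mtm1* had 341 to 369 counts in the WT libraries used, 282 to 459 in WT + TAM, 63 to 76 in KO and 53 to 97 in KO + TAM. The library labelled WT replicate 1 had 74 *Mtm1* counts, which goes against its label, and KO replicate 12 had 85. *Col8a1* and *Col19a1* counts of WT replicate 1 lay near the wild-type libraries instead. *Col8a1* had 502 counts there, against 175 to 452 in the wild-type libraries used and 2100 to 5852 in the KO and KO + TAM libraries used. *Col19a1* had 17, against 13 to 44 and 98 to 318 in the same order. The genotype of WT replicate 1 was not tested further. Both left-out libraries also differed from the others of their label by base composition, with a median log2 difference that ran from -0.52 in the fifth of genes lowest in GC to 0.38 in the highest for WT replicate 1, and from -0.35 to 0.25 for KO replicate 12. Among the libraries used, KO replicate 10 stood apart in cartilage and bone genes. In a bulk sample, fewer cells of a type and less RNA per cell cannot be told apart.

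Collagen transcripts were dominated by a few fibrillar chains. Levels between genes are compared as RPKM, and mean RPKM was 222 for *Col1a1*, 179 for *Col3a1* and 172 for *Col1a2*. The 6 highest genes, these and *Col4a1*, *Col6a1* and *Col4a2*, held 79.7% of the summed collagen RPKM. A mean of at least 10 RPKM was reached by 13 genes and one of at least 1 RPKM by 27, and the lowest gene, *Col25a1*, had 0.046. Collagen genes took 0.796 to 0.819% of all counts in WT, 0.442 to 0.722% in WT + TAM, 0.723 to 1.22% in KO and 0.728 to 0.901% in KO + TAM. WT + TAM lay below every WT library, whereas the KO libraries spread to both sides of WT. Of the collagen counts, 76.8% ± 3.3 (SD, n = 3) were fibrillar in WT and 71.7% ± 4.26 (SD, n = 3) in KO. The share of type IV was 10.4% ± 2.1 in WT and 11.1% ± 3.04 in KO, and that of type VI 8.42% ± 0.907 and 11.1% ± 1.03. The short-chain network took 0.256% ± 0.0252 in WT and 0.244% ± 0.0284 in WT + TAM (n = 4), against 1.33% ± 0.228 in KO and 1.86% ± 0.311 in KO + TAM (n = 4). Its ranges in the wild-type and the *Mtm1* KO mice did not overlap.

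**Figure D1:**
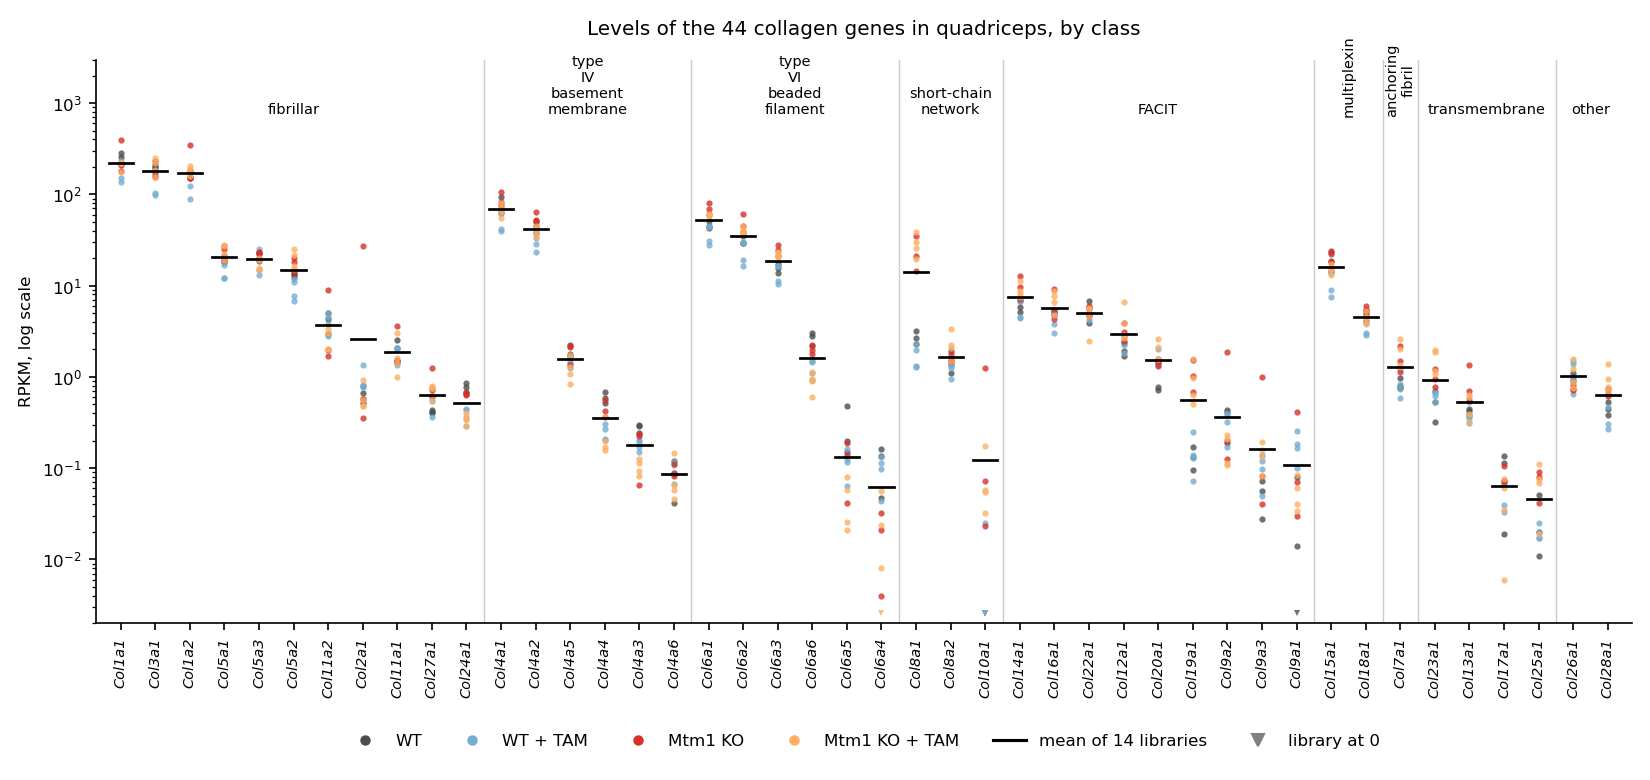
RPKM on a log axis of the 44 collagen genes, grouped by class, with 1 point for each of the 14 libraries used, colored by group, a bar for the mean and triangles for libraries at 0. Genes spread from a mean of 222 RPKM for *Col1a1* to 0.046 for *Col25a1*, and *Col8a1* is split between wild-type and KO libraries.

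Few collagens passed the test in any comparison. Each comparison was fitted over all genes that passed a filter on low counts, with edgeR's quasi-likelihood test, and a gene is called here at an adjusted p of at most 0.01. KO against WT called 2 of the 41 collagens tested, both higher, beside 3.6% of all genes tested (1.91% higher). KO + TAM against WT + TAM called 3 of 41, all higher, beside 6.72% (3.42% higher). WT + TAM against WT called none of 42, beside 0.131% of all genes, with 15 collagens at an unadjusted p of at most 0.05 (all genes, 10.7%) and 3 called by DESeq2. KO + TAM against KO called none of 42, where no gene of 15062 was called (0.0%), with 14 collagens at an unadjusted p of at most 0.05 (all genes, 7.55%) and 1 called by DESeq2.

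Contrasts from a single fit of all 14 libraries used every library at once. The genotype difference averaged over both treatments called 8 of 43 collagens, 3 higher and 5 lower, beside 19.4% of all genes (8.99% higher and 10.4% lower), so that the collagens were called about as often as genes in general. The tamoxifen difference averaged over both genotypes called 3 of 43, all lower, beside 0.591% of all genes (0.276% lower). KO + TAM against WT, which shares its libraries with the other comparisons, called 7 of 42 (2 higher, 5 lower) beside 7.7% (3.56% higher, 4.14% lower). The difference between the tamoxifen effects in KO and in WT called none of 43 (all genes, 0.0%), by edgeR or by DESeq2, and 6 collagens had an unadjusted p of at most 0.05 (all genes, 4.27%). With the threshold set to 0.05, 5 collagens passed in KO against WT (all genes, 12.8%), 10 in KO + TAM against WT + TAM (17%), 15 in KO + TAM against WT (20%), 18 in the genotype contrast (33.3%), 2 in WT + TAM against WT (0.55%), 4 in the tamoxifen contrast (1.84%) and none in KO + TAM against KO (0.0%). Alternatives counted below are other settings at the threshold of 0.01 and refits without 1 library. In all, 38 collagens were tested in every comparison, 43 in at least 1, and 9 were called at least once. *Col10a1* passed the filter in none of these comparisons, and 5 others (*Col6a4*, *Col9a1*, *Col9a3*, *Col17a1* and *Col25a1*) failed the filter in 1 or 2 comparisons.

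*Col8a1* had the largest genotype difference of the 43 collagens tested in the averaged contrast. It encodes the alpha 1 chain of collagen VIII, a short-chain collagen best known from the cornea and from remodeling vessel walls. Its CPM (counts scaled to a common library total) was 14.4, 13.7 and 17.6 in WT and 7.53, 7.08, 11 and 12.8 in WT + TAM. It was 91.5, 153 and 66.9 in KO and 128, 87.9, 164 and 143 in KO + TAM. All 7 *Mtm1* KO libraries thus lay above all 7 wild-type libraries, and the lowest KO library was 66.9 against a highest wild-type library of 17.6. The fold was 6.92 in KO against WT (log2 2.79 ± 0.289 SE, edgeR adjusted p = 0.0011) and 13.7 in KO + TAM against WT + TAM (log2 3.77 ± 0.243, adjusted p = 2.0e-05), where *Col8a1* ranked 4 by p of 14563 genes. Averaged over treatment it was 9.63-fold (log2 3.27 ± 0.208, adjusted p = 8.1e-08), and *Col8a1* was called in every alternative of the comparisons between genotypes. The left-out libraries held 25.9 CPM (WT replicate 1) and 196 CPM (KO replicate 12).

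No tamoxifen difference of *Col8a1* passed the test. The log2 difference was 0.32 ± 0.273 in KO (95% interval -0.28 to 0.92) and -0.67 ± 0.218 in WT (adjusted p = 0.29 by edgeR), where each WT + TAM library lay below each WT library. The difference between these effects was 1.01 ± 0.385 (unadjusted p = 0.019, adjusted p = 0.9998).

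*Col8a2*, which encodes the partner chain of collagen VIII, had 5.25 to 9.99 CPM in WT, 4.78 to 6.61 in WT + TAM, 5.86 to 6.88 in KO and 5.61 to 14.1 in KO + TAM. Its groups overlapped, and its log2 difference was -0.21 ± 0.247 in KO against WT (adjusted p = 0.62) and 0.65 ± 0.248 in KO + TAM against WT + TAM (adjusted p = 0.097). Within a library, the RPKM of *Col8a1* over that of *Col8a2* was 1.97 ± 0.665 (SD) in WT, 1.41 ± 0.354 in WT + TAM, 14.4 ± 4.89 in KO and 8.69 to 25.7 in KO + TAM, with no overlap between genotypes. *Col10a1*, a collagen of hypertrophic cartilage, had counts of 6, 103 and 2 in KO and 5, 16, 3 and 5 in KO + TAM, against 0 in every WT library and a single WT + TAM library with 2. Its levels were at most 0.481 CPM outside KO replicate 10, which had 3.37 CPM. Without the filter on low counts *Col10a1* was called higher in KO against WT (edgeR adjusted p = 0.0080). In the genotype contrast it was called in 3 of the 6 alternatives that tested it, none of which left out KO replicate 10, where it did not pass the filter. No fold is given against a group at 0.

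The stretches upstream of the genes with the largest rise are shown because both moved together with genotype. Sequences are RefSeq promoters on GRCm38.p6, which held a window for 35 of the 44 genes. Each line gives the 250 bases before the RefSeq start on the gene's strand. The gene spans printed in this report are from GENCODE, whose starts can differ. The stretches of *Col19a1*, *Col6a6* and *Col6a4* thus begin inside their printed spans. Capitals mark matches on either strand to the TATA box (TATAAA), the CCAAT box, the AP-1 site (TGANTCA), the E-box (CANNTG) or the GC box (GGGCGG).
Col8a1, chr16:57754738-57754987, minus strand: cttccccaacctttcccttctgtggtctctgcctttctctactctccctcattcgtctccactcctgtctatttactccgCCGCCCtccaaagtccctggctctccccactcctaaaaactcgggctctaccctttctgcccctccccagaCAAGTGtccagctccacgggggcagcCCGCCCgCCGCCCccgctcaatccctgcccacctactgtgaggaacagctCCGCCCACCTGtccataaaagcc
Col19a1, chr1:24587438-24587687, minus strand: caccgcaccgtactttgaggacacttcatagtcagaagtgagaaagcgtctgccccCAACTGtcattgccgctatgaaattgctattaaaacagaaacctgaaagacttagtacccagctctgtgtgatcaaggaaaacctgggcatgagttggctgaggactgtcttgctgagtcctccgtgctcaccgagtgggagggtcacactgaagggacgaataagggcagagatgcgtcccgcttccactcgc
The *Col8a1* stretch held 4 GC boxes and 2 E-boxes, of which 1 E-box overlapped a GC box, and the *Col19a1* stretch held 1 E-box. Over all 32851 promoter windows, 32.7% held the GC box, 66.2% the E-box, 33.8% CCAAT, 12.4% the TATA box and 6.75% the AP-1 site.

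*Col19a1* was the other collagen called in both genotype comparisons. It encodes a FACIT chain that is scarce in most tissues, and it spans chr1:24261890-24587472 (GRCm38). Its CPM was 0.961, 0.762 and 1.25 in WT and 1.89, 1.05, 0.554 and 0.968 in WT + TAM. It was 4.06, 6.06 and 9.39 in KO and 4.2, 9.55, 5.59 and 3.21 in KO + TAM. Every KO library lay above every wild-type library. The fold was 6.63 in KO against WT (log2 2.73 ± 0.362, edgeR adjusted p = 0.0027) and 5.06 in KO + TAM against WT + TAM (log2 2.34 ± 0.411, adjusted p = 0.0036). The call at 0.01 was lost, with adjusted p between 0.010 and 0.012, when KO replicate 10 or 11, WT replicate 2 or 3, WT + TAM replicate 6, 7 or 8 or KO + TAM replicate 15 was left out of the comparison it belongs to, while the log2 difference stayed at 2.12 to 2.79. The left-out libraries held 0.877 CPM (WT replicate 1) and 21.7 CPM (KO replicate 12).

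The remaining FACIT chains lay closer to 0 difference. *Col12a1* and *Col14a1*, which decorate collagen I fibrils in tendon and muscle sheaths, differed by 0.34 ± 0.199 and 0.41 ± 0.197 on the log2 scale in KO against WT (adjusted p = 0.29 and 0.20). *Col22a1*, a collagen of the myotendinous junction, differed by -0.24 ± 0.229 (adjusted p = 0.52). *Col16a1* and *Col20a1* differed by 0.02 and 0.28. Of the 7 FACIT chains tested there, 6 were above 0 and *Col19a1* was the 1 called. Among those above 0, *Col9a2* and *Col16a1* exceeded the WT libraries in KO replicate 10 alone. *Col9a2* had 4.88 CPM in that library and 0.524 and 0.35 in the other KO libraries, against 0.677 to 1.44 in WT. *Col16a1* had 53.4 CPM there and 31.2 and 26 in the others, against 33.3 to 41.7 in WT.

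Within collagen VI, the standard chains and the alternative chains differed in opposite directions with genotype. *Col6a1*, *Col6a2* and *Col6a3* encode the chains of the filament found in most connective tissue, and *Col6a4*, *Col6a5* and *Col6a6* encode chains related to the alpha 3 chain. *Col6a1* had 233, 219 and 210 CPM in WT and 261, 300 and 241 in KO. In the contrast averaged over treatment the log2 differences were 0.35 ± 0.11 for *Col6a1*, 0.39 ± 0.144 for *Col6a2* and 0.36 ± 0.115 for *Col6a3*, with edgeR adjusted p of 0.024, 0.047 and 0.024, so that all of them passed 0.05 (all genes, 33.3%) and none 0.01. Under scaling by library size alone the median of all genes moved up by 0.31 in that contrast, and these 3 genes were then called higher.

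*Col6a6* was lower with genotype and lower again with tamoxifen. Its CPM was 27.2, 23.5 and 29.5 in WT and 11.4, 9.25, 14.7 and 14.9 in WT + TAM. It was 17.4, 13.9 and 16.3 in KO and 10.1, 7.66, 4.66 and 7.67 in KO + TAM. WT lay above every other library used, and KO above KO + TAM, while WT + TAM and KO overlapped. The fold reduction with tamoxifen averaged over genotype was 2.12 (log2 -1.08 ± 0.152, edgeR adjusted p = 0.0019), and it was called in all 19 alternatives of that contrast. In each genotype alone the log2 difference was -1.09 in WT (± 0.178, adjusted p = 0.033) and -1.09 in KO (± 0.223, adjusted p = 0.18), neither past 0.01, and their difference was 0.02 ± 0.309 (95% interval -0.64 to 0.68).

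The genotype difference of *Col6a6* was -0.73 ± 0.143 in KO against WT (adjusted p = 0.013) and -0.74 ± 0.233 in KO + TAM against WT + TAM (adjusted p = 0.051). Averaged over treatment it fell by 0.75 ± 0.154, a 1.68-fold reduction (adjusted p = 0.0018). That call was lost with all 16 libraries (log2 -0.68, adjusted p = 0.01002), where WT replicate 1 held 13 CPM, and under library size alone (log2 -0.45, adjusted p = 0.019). In KO + TAM against WT, where both differences add, it was 3.56-fold lower (log2 -1.83 ± 0.217, adjusted p = 6.0e-04). Within a library, *Col6a6* over *Col6a3* in RPKM was 0.173 ± 0.0386 in WT, 0.0926 ± 0.00483 in WT + TAM, 0.0822 ± 0.0159 in KO and 0.0414 ± 0.0119 in KO + TAM.

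*Col6a4* and *Col6a5* stood close to the limit of detection. *Col6a4* had 1.44, 0.466 and 1.25 CPM in WT and 0.947, 0.402, 1.07 and 1.22 in WT + TAM. It had 0.0327, 0.229 and 0.159 CPM in KO and 0.2, 0.421, 0 and 0.0656 in KO + TAM. Only 1 KO + TAM library reached the lowest wild-type library. Averaged over treatment *Col6a4* fell by 2.62 ± 0.567 (edgeR adjusted p = 0.0024), a 6.17-fold reduction that was called in all 19 alternatives. *Col6a5* had 1.48, 2.2 and 4.88 CPM in WT, 1.72, 0.644, 1.19 and 1.3 in WT + TAM, 1.54, 0.327 and 1.18 in KO and 0.733, 0.481, 0.168 and 0.229 in KO + TAM. KO overlapped both wild-type groups. It fell by 1.54 ± 0.408 in the averaged contrast (2.91-fold, adjusted p = 0.0093), and this was called in 8 of 19 alternatives. In KO + TAM against WT it was 7.08-fold lower (log2 -2.82).

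*Col6a6*, *Col6a5* and *Col6a4* lie in a row on the minus strand of chromosome 9 of GRCm38. *Col6a6* spans chr9:105687809-105828160, *Col6a5* chr9:105856078-105960643 and *Col6a4* chr9:105989454-106096783. They are 27917 and 28810 bases apart, with no coding gene between them. *Col6a5* shared 3.42% of its 50-base exon words with other genes, mainly *Col6a6*. Their upstream stretches are shown because these neighbors were lower together, with the same marks as above.
Col6a6, chr9:105828086-105828335, minus strand: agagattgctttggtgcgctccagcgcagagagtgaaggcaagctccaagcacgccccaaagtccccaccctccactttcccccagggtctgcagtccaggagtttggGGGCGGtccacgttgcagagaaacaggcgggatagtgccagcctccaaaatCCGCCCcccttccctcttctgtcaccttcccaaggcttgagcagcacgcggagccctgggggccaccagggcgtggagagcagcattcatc
Col6a5, chr9:105960644-105960893, minus strand: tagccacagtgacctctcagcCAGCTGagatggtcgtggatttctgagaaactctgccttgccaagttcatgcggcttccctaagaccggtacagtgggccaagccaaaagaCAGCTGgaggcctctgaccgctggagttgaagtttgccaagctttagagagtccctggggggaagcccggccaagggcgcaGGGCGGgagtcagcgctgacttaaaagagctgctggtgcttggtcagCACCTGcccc
Col6a4, chr9:106096692-106096941, minus strand: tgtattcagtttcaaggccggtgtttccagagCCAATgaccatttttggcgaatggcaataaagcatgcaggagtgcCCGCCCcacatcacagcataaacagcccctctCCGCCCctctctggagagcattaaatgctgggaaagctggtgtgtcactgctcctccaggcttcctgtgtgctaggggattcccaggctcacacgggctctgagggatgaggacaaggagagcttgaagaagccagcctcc
The *Col6a6* stretch held 2 GC boxes, that of *Col6a5* 3 E-boxes and 1 GC box, and that of *Col6a4* 1 CCAAT box and 2 GC boxes. The GC box was the motif found in all of them, and it was common among the collagens, in 22 of their 38 windows.

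**Figure D2:**
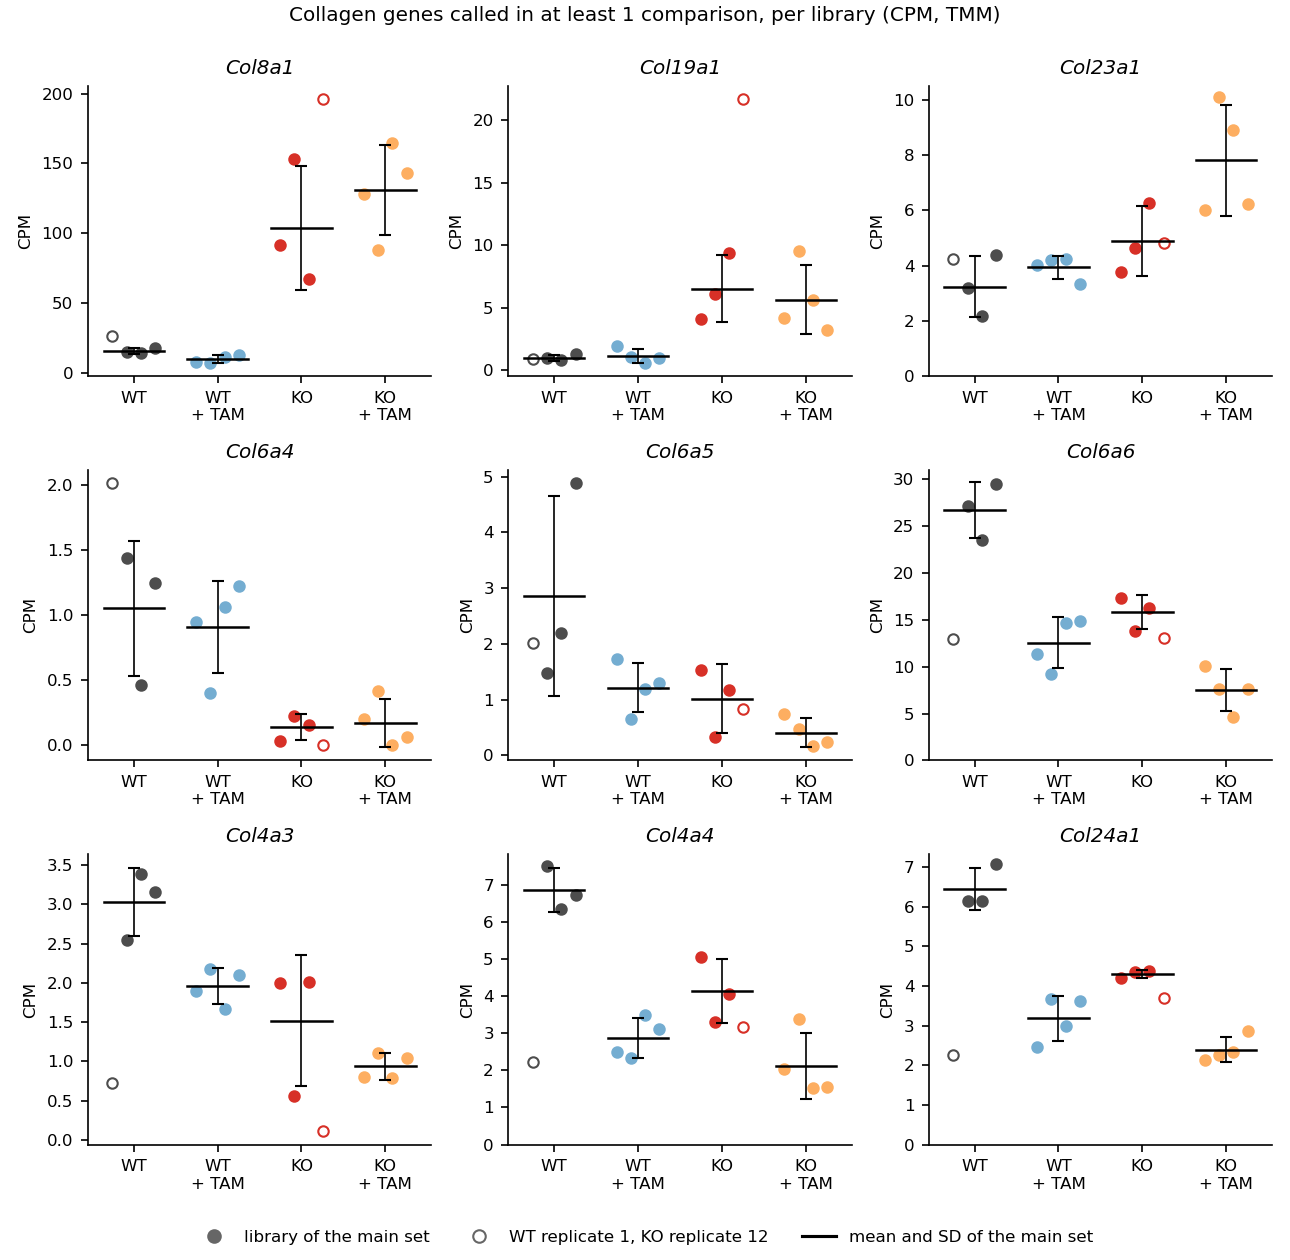
CPM of the 9 collagen genes called in at least 1 comparison, with filled points for the libraries used, open points for WT replicate 1 and KO replicate 12, and bars for the mean and SD of the libraries used. *Col8a1* and *Col19a1* are high in both KO groups, and *Col6a6* steps down from 26.7 CPM in WT to 7.53 in KO + TAM.

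In collagen IV, the abundant chains were not called for genotype, while the scarce alpha 3 chain was called lower for genotype and the scarce alpha 4 chain for tamoxifen. This split rests on the limit of 0.01. Both scarce chains were called lower in KO + TAM against WT (2 of 6, all genes 4.14%). For genotype, 3 of 6 type IV chains were lower at an adjusted p of at most 0.05 (all genes in either direction, 33.3%). For tamoxifen, 5 of 6 were lower at an unadjusted p of at most 0.05 (all genes, 7.5%). *Col4a1* and *Col4a2* encode the chains of the network found in every basement membrane. *Col4a1* had 673, 495 and 524 CPM in WT, 299, 306, 469 and 486 in WT + TAM, 624, 483 and 472 in KO and 472, 330.0, 363 and 504 in KO + TAM. Its log2 difference was -0.07 ± 0.173 in KO against WT (95% interval -0.47 to 0.32). That of *Col4a2* was 0.02 ± 0.144 (-0.31 to 0.34). With tamoxifen averaged over genotype, *Col4a1* differed by -0.43 ± 0.144 (edgeR adjusted p = 0.16) and *Col4a2* by -0.46 ± 0.119 (adjusted p = 0.065), below the threshold. The RPKM of *Col4a1* over *Col4a2* kept to group means between 1.60 and 1.71.

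*Col4a4* was lower in the treated mice. It encodes a chain of the collagen IV trimer known from the glomerular basement membrane of the kidney, and so does *Col4a3*. *Col4a4* had 7.5, 6.35 and 6.71 CPM in WT and 2.5, 2.33, 3.5 and 3.12 in WT + TAM. It had 5.04, 3.31 and 4.04 in KO and 2.03, 3.39, 1.52 and 1.54 in KO + TAM. WT lay above the other groups, and KO overlapped KO + TAM through 1 library. Tamoxifen averaged over genotype gave a 2.16-fold reduction (log2 -1.11 ± 0.189, edgeR adjusted p = 0.0059), which was lost in 11 of the 14 fits that left out 1 library and with all 16 libraries (log2 -0.94, adjusted p = 0.059). In WT alone it was 2.40-fold (log2 -1.26 ± 0.205, adjusted p = 0.033).

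*Col4a3* had 2.55, 3.39 and 3.16 CPM in WT, 1.89, 2.17, 1.66 and 2.1 in WT + TAM, 2, 0.557 and 2.01 in KO and 0.799, 1.11, 0.786 and 1.05 in KO + TAM. WT was highest and KO + TAM lay below WT + TAM without overlap. Averaged over treatment the genotype difference fell by 1.03 ± 0.25 (2.04-fold, edgeR adjusted p = 0.0054), called in 11 of 19 alternatives and lost with all 16 libraries (adjusted p = 0.062). Of its 50-base exon words 4.66% also occur in C430014B12Rik, a gene on the opposite strand that overlaps it. *Col4a5* and *Col4a6*, a second such pair on the X chromosome, differed by -0.44 ± 0.151 (adjusted p = 0.037) and -0.35 ± 0.325 (adjusted p = 0.44) in that contrast.

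*Col4a4* and *Col4a3* lie head to head on chromosome 1 of GRCm38, at chr1:82448423-82586849 on the minus strand and chr1:82586921-82722059 on the plus strand. The 71 bases between them are shown on the plus strand because they lie upstream of both genes.
Col4a4 to Col4a3, chr1:82586850-82586920: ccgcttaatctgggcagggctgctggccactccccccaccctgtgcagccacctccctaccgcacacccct
They are 69.0% G or C, and none of the motifs listed above occurs in them.

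None of the main fibrillar chains was called by edgeR in any comparison at the settings used. *Col1a1*, which with *Col1a2* encodes collagen I, had 1492, 2165 and 1818 CPM in WT, 1117, 963, 1658 and 1585 in WT + TAM, 1172, 2195 and 1062 in KO and 1392, 1021, 1213 and 1339 in KO + TAM. The KO libraries other than replicate 10 lay below every WT library. The log2 difference in KO against WT was -0.28 ± 0.279 for *Col1a1* (95% interval -0.91 to 0.35) and 0.02 ± 0.306 for *Col1a2* (-0.67 to 0.71). Differences within these intervals remain compatible with the data. Without KO replicate 10 the difference of *Col1a1* was -0.67 ± 0.191 (adjusted p = 0.080) and that of *Col1a2* was -0.46. DESeq2 called *Col1a1* lower in KO + TAM against WT (adjusted p = 0.0057). *Col3a1*, the chain of collagen III of loose connective tissue, had 2175, 2303 and 2027 CPM in WT, 1085, 1087, 1767 and 1750 in WT + TAM, 1936, 1475 and 1361 in KO and 1487, 1596, 2079.5 and 2000.0 in KO + TAM. WT stood above WT + TAM and KO. The log2 differences of *Col3a1* were -0.42 ± 0.172 in KO against WT (edgeR adjusted p = 0.14), -0.61 ± 0.197 in WT + TAM against WT (adjusted p = 0.29) and 0.16 ± 0.19 in KO + TAM against KO (adjusted p = 0.92). The left-out libraries stood far from these, at 580.2 CPM (WT replicate 1) and 447 (KO replicate 12).

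Collagen V, which regulates the width of collagen I fibrils, was represented by *Col5a1*, *Col5a2* and *Col5a3*. *Col5a2* had 136, 148 and 129 CPM in WT, 72.6, 79.6, 114 and 125 in WT + TAM, 165, 147 and 120.4 in KO and 140.3, 139, 200.1 and 191 in KO + TAM. KO + TAM lay above WT + TAM, by 0.78 ± 0.195 on the log2 scale (edgeR adjusted p = 0.019). This *Col5a2* difference was called in 4 of 13 alternatives, with adjusted p down to 0.0013 (DESeq2). *Col5a1* differed there by 0.40 ± 0.177 (adjusted p = 0.14) and *Col5a3* by -0.41 ± 0.203 (adjusted p = 0.19). In KO against WT the collagen V chains differed by -0.14 to 0.09.

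*Col24a1* was the fibrillar chain with a called tamoxifen difference. It encodes a minor chain known from developing bone and cornea. It had 6.13, 6.14 and 7.06 CPM in WT, 2.45, 3.66, 2.98 and 3.62 in WT + TAM, 4.19, 4.36 and 4.36 in KO and 2.13, 2.25, 2.33 and 2.85 in KO + TAM. Treated and untreated libraries did not overlap in either genotype. Tamoxifen averaged over genotype gave a 1.91-fold reduction (log2 -0.93 ± 0.13, edgeR adjusted p = 0.0018), called in 18 of 19 alternatives and lost with all 16 libraries (log2 -0.78, adjusted p = 0.0497), where WT replicate 1 held 2.27 CPM. Its genotype difference averaged over treatment, -0.50 (adjusted p = 0.0092), was called in 4 of 19 alternatives. Among the 15556 genes of the tamoxifen contrast, *Col24a1* and *Col6a6* ranked 24 and 25 by p.

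In comparisons that use the KO group, collagens II, IX and XI, the collagens of cartilage, depended on KO replicate 10. *Col9a1*, close to the limit of detection, also differed between the other groups. It had 0.0739, 0.466 and 0 CPM in WT, 1.03, 1.41, 0.554 and 0.926 in WT + TAM and 0.167 to 0.394 in KO + TAM. DESeq2 called *Col9a1* and *Col11a2* lower in KO + TAM against WT + TAM. At the main settings edgeR called neither. *Col2a1* had 1.8, 139 and 3.09 CPM in KO, of which the high value is replicate 10, against 3.25 to 5.5 in WT, 3.7 to 8.95 in WT + TAM and 2.41 to 5.33 in KO + TAM. *Col9a2* had 4.88 CPM and *Col9a3* 3.31 CPM in that library, against at most 0.524 and 0.287 in the other KO libraries. The log2 difference of *Col2a1* in KO against WT was 3.49 ± 1.38 (adjusted p = 0.13), and -0.79 ± 0.344 (adjusted p = 0.21) without replicate 10. In KO + TAM against KO it was -3.86 ± 1.15 (adjusted p = 0.37), and 0.44 ± 0.377 (adjusted p = 0.95) without it. For *Col11a2* the genotype difference averaged over treatment was -0.60 ± 0.315 (adjusted p = 0.16) with the library and -1.18 ± 0.203 (adjusted p = 7.6e-04) without it.

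The 7 cartilage and bone markers summed to 57.9 CPM in KO replicate 10, against 4.43 to 8.17 in the wild-type libraries used, 12.1 and 16 in the other KO libraries and 14.6 to 19.2 in KO + TAM. *Matn1* was at 0 in every other library, *Ibsp* had 17.4 CPM and *Bglap* 11.7 CPM there, and all 7 were above 0 in this library alone. *Sox9* made up most of the sum in the other KO libraries and was called higher in KO against WT (log2 1.96, adjusted p = 0.0016). The part of such tissue in the collagen values was not tested beyond leaving the library out, and without it *Col8a1* was still called in KO against WT.

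Among the transmembrane collagens, *Col23a1* was higher in treated KO mice. It had 3.18, 2.16 and 4.37 CPM in WT, 4, 4.18, 4.22 and 3.33 in WT + TAM, 3.76, 4.62 and 6.27 in KO and 5.99, 10.1, 8.9 and 6.23 in KO + TAM. KO + TAM lay above all wild-type libraries, and KO overlapped with WT and WT + TAM. The fold was 1.99 in KO + TAM against WT + TAM (log2 0.99 ± 0.205, edgeR adjusted p = 0.0079), called in 7 of 13 alternatives, and the call ended without WT + TAM replicate 5, 6, 7 or 8 or KO + TAM replicate 14 or 15. Averaged over treatment the fold was 1.73 (adjusted p = 0.0038, 16 of 19 alternatives). *Col13a1*, a collagen of the neuromuscular junction, differed by 0.74 ± 0.348 in KO against WT (adjusted p = 0.19) and 0.04 ± 0.295 in the treated mice.

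*Col7a1*, the chain of the anchoring fibrils of skin, differed by 0.71 ± 0.196 averaged over treatment (edgeR adjusted p = 0.012). The multiplexins *Col15a1* and *Col18a1*, which sit at vessel and muscle basement membranes, had no genotype difference above 0.05 in size when averaged over treatment. With tamoxifen averaged over genotype, *Col15a1* differed by -0.60 ± 0.144 (adjusted p = 0.047) and *Col18a1* by -0.34 ± 0.118 (adjusted p = 0.18). *Col15a1* had 108 to 154 CPM in WT and 53.1 to 97.5 in WT + TAM, without overlap, and 103 to 131 in KO and 69.5 to 102 in KO + TAM.

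The genotype differences can be set side by side in untreated and treated mice, which share no libraries. Of 39 collagens tested in both, 31 (79.5%) had the same sign, against 77.4% of all genes. Pearson's r across these 39 genes was 0.66, and 0.44 without *Col8a1* and *Col19a1*, against 0.75 over all genes. Genes share libraries and are not independent replicates, so no p is given. The median log2 difference of the 41 collagens tested was -0.02 in KO against WT and 0.06 in KO + TAM against WT + TAM, where the medians of all genes were 0.02 and -0.01. By class the median in KO against WT was -0.14 for the 11 fibrillar, -0.22 for the 6 type IV, -0.21 for the 6 type VI, 0.34 for the 7 FACIT and 0.68 for the 4 transmembrane collagens. Without KO replicate 10 the fibrillar median was -0.46, with 9 of 11 below 0, and the FACIT median 0.20. The fibrillar median became 0.17 under scaling by library size alone, which moved the median of all genes from 0.02 to 0.33.

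**Figure D3:**
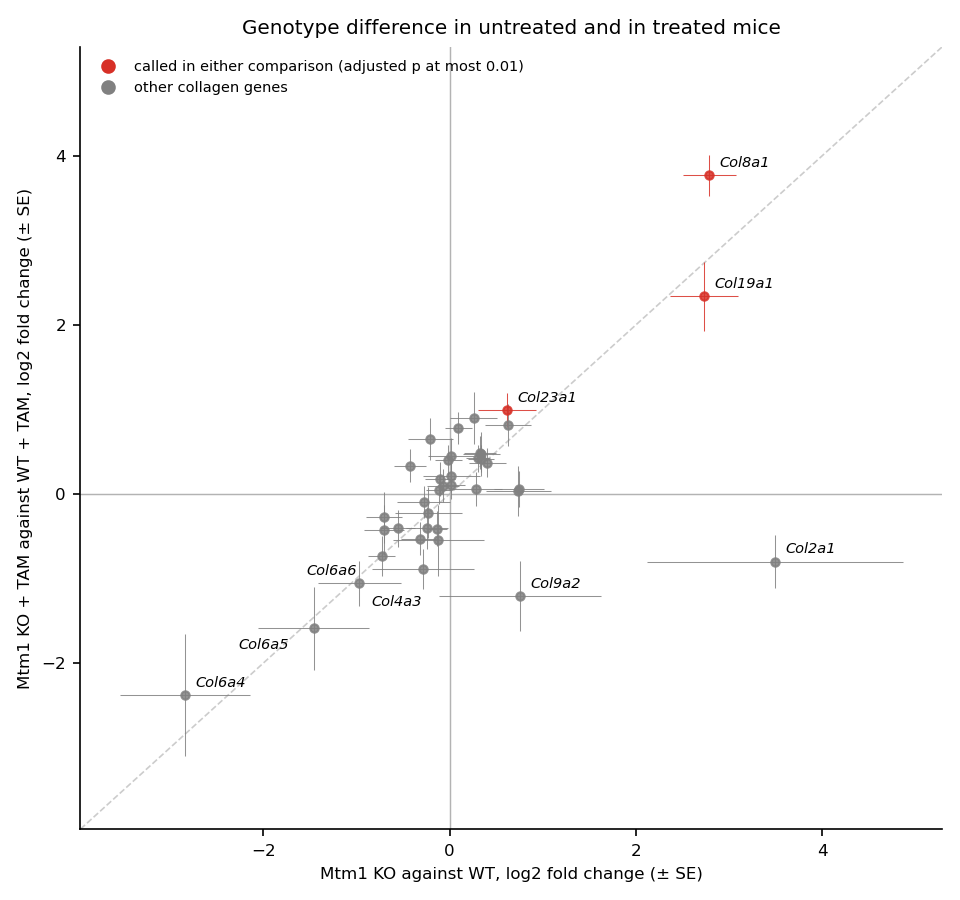
Log2 fold change (± SE) of each collagen gene tested in KO against WT (horizontal) and KO + TAM against WT + TAM (vertical), with the dashed line of equal values and the 3 genes called in either in red. *Col8a1* and *Col19a1* lie at the top right, *Col6a4*, *Col6a5*, *Col4a3* and *Col6a6* at the lower left, and *Col2a1* and *Col9a2* off the line through KO replicate 10.

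With tamoxifen, most collagens lay below 0 in WT, and in KO the direction depended on KO replicate 10. The WT + TAM libraries were uneven as well. Fibrillar sums were 4237 and 3546 CPM in WT + TAM replicates 5 and 6 and 6056 and 5929 in replicates 7 and 8 (WT, 6094 to 7609). Type VI sums were 490 and 424 CPM in replicates 5 and 6. Replicates 7 and 8, with 717 and 712, lay within WT (687 to 788). Of the 42 tested, 31 (73.8%) were below 0 in WT + TAM against WT, where 50.5% of all genes were, and 29 (69.0%) in KO + TAM against KO, where 51.8% of all genes were. The median was -0.26 in WT and -0.22 in KO. Without KO replicate 10, 19 of 42 (45.2%) were below 0 in KO, where 50.8% of all genes were, and the median was 0.11. At an unadjusted p of at most 0.05, 13 collagens were lower and 2 higher in WT (all genes, 5.98% lower and 4.67% higher), and 11 lower and 3 higher in KO (4.48% and 3.07%), or 8 and 2 without KO replicate 10. Across the 41 genes tested in both, 28 (68.3%) had the same sign, of which 23 were lower in both, against 60.7% of all genes. Without KO replicate 10 the same sign held for 26 (63.4%), 17 of them lower in both, against 60.6% of all genes. Pearson's r was -0.10 for these collagens and 0.38 over all genes. Without KO replicate 10 it was 0.57 for the collagens and 0.34 over all genes. Over the 35 genes left without collagens II, IX and XI it was 0.67, but that set leaves out the genes farthest off the line. Type IV had 5 of 6 chains below 0 in WT (median -0.53) and 6 of 6 in KO (median -0.50), fibrillar collagens 9 of 11 (-0.37) and 8 of 11 (-0.25), and type VI 6 of 6 (-0.36) and 5 of 5 (-0.22). FACIT chains had a median of 0.17 in WT and -0.18 in KO. Without KO replicate 10 type IV was still below 0 in 6 of 6 chains in KO (median -0.63) and type VI in 5 of 5 (-0.10). The fibrillar collagens then had 2 of 11 below 0 (median 0.15), *Col5a3* and *Col24a1*, and the FACIT chains 2 of 9 (median 0.13). In the contrast averaged over genotype, 32 of 43 collagens (74.4%) were below 0 with that library and 24 of 43 (55.8%) without it, against 49.2% and 48.5% of all genes.

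**Figure D4:**
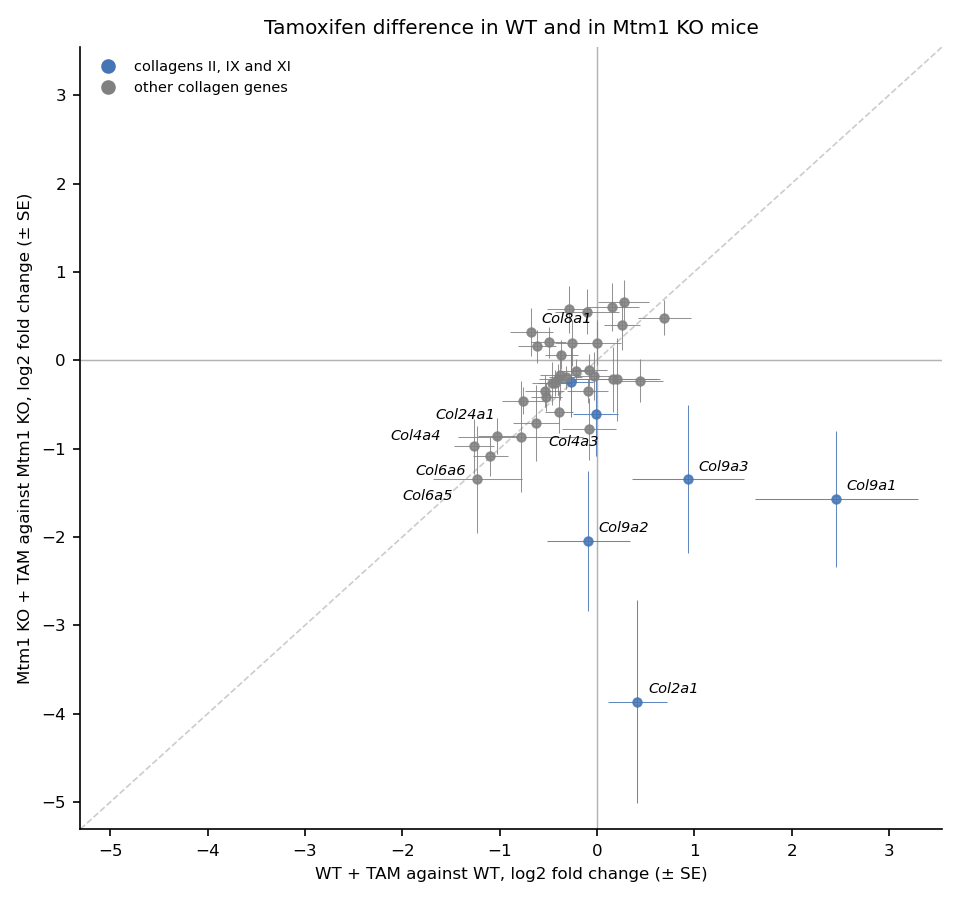
Log2 fold change (± SE) of each collagen gene tested in WT + TAM against WT (horizontal) and KO + TAM against KO (vertical), with the dashed line of equal values and collagens II, IX and XI in blue. Of 41 genes, 23 lie at the lower left, below 0 in both (17 without KO replicate 10), with *Col6a6*, *Col4a4*, *Col24a1* and *Col6a5* farthest along the line, and *Col2a1*, *Col9a1*, *Col9a2* and *Col9a3* lie far below it.

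Several marker lists lay on 1 side of 0 with tamoxifen. All 6 endothelial markers were below 0 in both genotypes (medians -0.41 in WT and -0.28 in KO, and 5 of 6 in KO without replicate 10), with sums of 296 to 430.0 CPM in WT, 236 to 303 in WT + TAM, 231 to 342 in KO and 188 to 283 in KO + TAM. The 5 smooth muscle and pericyte markers summed to 570.4 to 703, 410.4 to 555, 499 to 623 and 433 to 558 CPM in the same order. All 5 were below 0 in WT, while in KO 3 were below 0 and 2 above. None of these markers was called for tamoxifen by edgeR in either genotype, none of them was at 0 in any library, and their part in the collagen values was not tested. The 5 Schwann cell markers were all above 0 in both genotypes (medians 0.20 and 0.29), and the 5 fat cell markers all above 0 in WT (median 0.71) and all below 0 in KO (-0.18). The fat cell sums were 1810 and 1335 CPM in WT + TAM replicates 5 and 6. Replicates 7 and 8 had 488 and 499 CPM, within the WT range of 215 to 1170. The 8 fibroblast markers had a median of -0.09 in each genotype.

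Of the fibroblast markers, 2 of 8 were called in the genotype contrast averaged over treatment, near the share of all genes called there. That share was 19.4% (8.99% higher and 10.4% lower), and it applies to each list below in that contrast. The fibroblast markers summed to 1448 to 1771 CPM in WT, 1440.4 to 2084 in WT + TAM, 1997 to 2645 in KO and 2016 to 2279 in KO + TAM. All 8 were above 0 in KO against WT, and *Mfap5* and *Pdgfra* were called higher in the contrast averaged over treatment. The 7 muscle fiber markers summed to 129009 to 167863 CPM in WT and 76432 to 89380 in KO, and 4 of them were called lower in that contrast while the other 3 lay above 0. Macrophage markers (4 of the 5 listed) summed to 44.2 to 61.3 CPM in WT and 59.7 to 84.8 in KO, and tendon cell markers to 455 to 687 and 626 to 1115. Of the 7 tendon markers, 2 were called higher and 1 lower in the averaged contrast, and 4 lay below 0. The smooth muscle and pericyte list had 3 of 5 called lower there and the endothelial list 1 of 6. Satellite cell and myoblast markers summed to 75.0 to 82.4 CPM in WT and 140.3 to 198 in KO, with 1 called higher and 1 lower. In KO against WT, where 1.91% of all genes were called higher, 3 of 5 neuromuscular junction markers were (*Chrna1*, *Chrng* and *Colq*, log2 2.20, 3.65 and 1.27). Of the 4 myotendinous junction markers 2 were called higher (*Ankrd1* and *Thbs4*, 4.16 and 1.19) and *Nav3* was at -0.16. These shifts move with the collagen differences between genotypes, and their part in them was not tested.

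**Figure D5:**
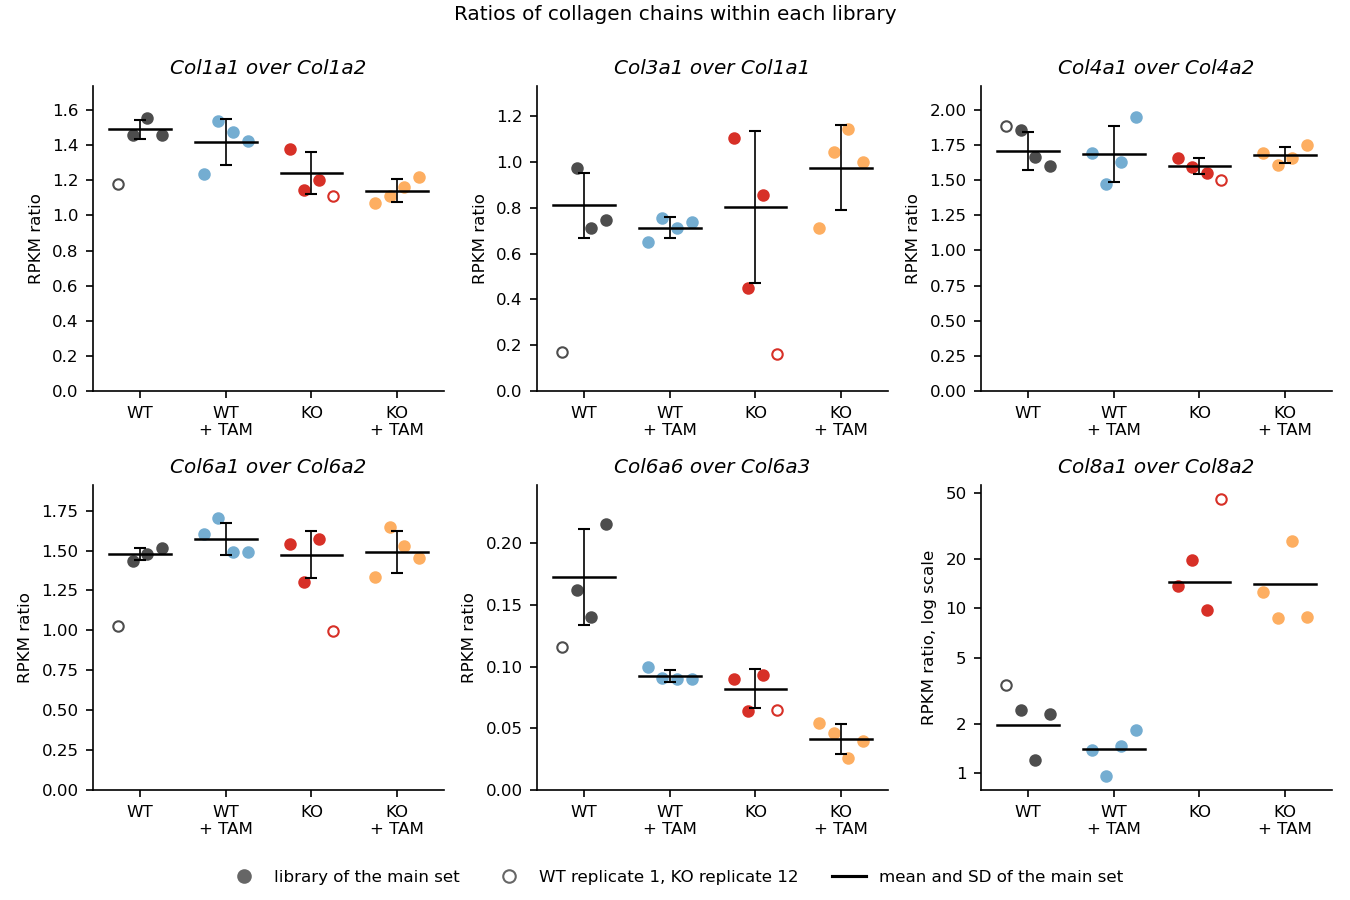
Ratio of the RPKM of 2 chains within each library, by group, with filled points for the libraries used, open points for WT replicate 1 and KO replicate 12, and bars for the mean and, on the linear axes, SD. *Col4a1* over *Col4a2* and *Col6a1* over *Col6a2* stay level, *Col6a6* over *Col6a3* falls from 0.173 in WT to 0.0414 in KO + TAM, and *Col8a1* over *Col8a2* (log axis) separates the genotypes.

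Ratios of chains within a library separated these patterns. *Col1a1* over *Col1a2*, which join in collagen I, was 1.49 ± 0.0568 (SD) in WT, 1.42 ± 0.131 in WT + TAM, 1.24 ± 0.121 in KO and 1.14 ± 0.0637 in KO + TAM. KO + TAM lay below every wild-type library used, from 1.07 to 1.22 against 1.23 to 1.56. *Col6a1* over *Col6a2* had group means between 1.47 and 1.57. *Col3a1* over *Col1a1* ranged from 0.449 to 1.11 in KO alone and was not stable between mice. These ratios are descriptions without a test.

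Of the genes that act on collagen, 74 were listed by role, and the counts below are calls in the genotype contrast averaged over treatment, in which 8.99% of all genes were called higher and 10.4% lower. Chain hydroxylation and glycosylation had 4 of 14 genes higher and none lower. They were *Plod2*, a lysyl hydroxylase of the telopeptides (log2 1.34 ± 0.164, edgeR adjusted p = 2.7e-05), the prolyl 4-hydroxylase subunit *P4ha3* (1.80 ± 0.393) and the prolyl 3-hydroxylases *Lepre1* (0.38 ± 0.102) and *Leprel1* (0.96 ± 0.228). Among chaperones and export factors 3 of 9 tested were higher, the cis-trans isomerases *Ppib* (0.58), *Fkbp7* (0.53) and *Fkbp10* (0.64), and 2 lower, *Mia3* and *Sec23a*, which package procollagen for export (-0.33 and -0.56). Of 12 genes of propeptide cleavage and cross-linking, the lysyl oxidases *Lox* (0.86), *Loxl1* (0.91) and *Loxl3* (0.48) were higher and *Loxl4* (-1.15) lower.

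Partners of fibrils had 4 of 13 genes higher and 1 lower. They were the proteoglycans *Bgn* (log2 1.23 ± 0.146), *Lum* (0.53 ± 0.11) and *Aspn* (1.13 ± 0.111, edgeR adjusted p = 4.2e-06), the matricellular *Thbs1* (1.09 ± 0.202), and *Kera* (-1.05 ± 0.21), a proteoglycan of tendon and cornea that was lower. Of 10 receptors and uptake genes tested, the integrin chain *Itgb1* (0.55), the endocytic collagen receptor *Mrc2* (0.68) and the proteoglycan *Cspg4* (0.60) were higher and none was lower. None of the 13 basement membrane partners (laminins, nidogens and the like) was called in either direction by edgeR, with 4 of them at an unadjusted p of at most 0.05, and their median was 0.01. In KO against WT alone only *Plod2* (1.09) and *Aspn* (0.97) of all these lists were called. In the tamoxifen contrast averaged over genotype, none of the 71 tested was called by edgeR, 19 were lower and 2 higher at an unadjusted p of at most 0.05 (all genes, 7.5% and 6.65%), and medians were -0.08 to -0.24 by list (-0.02 to -0.17 without KO replicate 10). Of the basement membrane partners, 12 of 13 were below 0 in each genotype.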

How the data were processed

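The values are whole-number read counts per gene, deposited by the authors as 1 table with an RPKM value per library beside the counts. Per the methods of the study, reads from TruSeq libraries of 1 µg of total RNA were aligned to GRCm38 with STAR in 2 passes and counted with HTSeq, and the submitters' processing notes list bcl2fastq 2.17, STAR 2.5.0c and Cufflinks 2.2.1. The deposited RPKM values are scaled from the counts by library total and gene length, which was checked on 1368 genes (largest relative deviation 4.65e-05). Counts were fitted with edgeR 4.0.16 in R 4.3.3 (TMM scaling, filterByExpr with a minimum count of 10 and total of 15, quasi-likelihood F test, Benjamini-Hochberg over all genes tested, adjusted p at most 0.01). There were 5 comparisons of 2 groups, each fitted on those groups, and 3 contrasts from 1 fit of 4 groups. CPM values were scaled by TMM over all 16 libraries, the SE of a log2 difference is its size over the square root of F, and intervals are 95%. The fits were tested on simulated counts. Alternatives were DESeq2 1.42.0, size factors by relative log expression, library size only, no filter, a threshold of 0.05, all 16 libraries, 1 fit of all groups and leaving out each library. Library labels give separate samples but do not name the animals, so p-values measure the spread between these samples. No 2 of the 120 pairs of libraries held identical counts, which cannot show whether 2 libraries come from the same animal. WT + TAM replicates 7 and 8 lay close together in many values. *Col3a1* had 41449 and 41572 counts in these libraries, *Col12a1* 1093 and 1090, and *Col6a2* 6407 and 6361. The fat cell markers of replicates 7 and 8 summed to 488 and 499 CPM, against 1810 and 1335 in replicates 5 and 6. In *Col4a2* replicates 7 and 8 were less close (280 and 242 CPM), and the cause was not tested. Whether the 4 WT + TAM libraries are independent samples was not tested either. Positions are from GENCODE vM21, on GRCm38. The collagen genes, their classes and the partner and marker lists were chosen with earlier results of these data known. Genes given in full are those called in at least 1 comparison, *Col8a1*, *Col6a6* and the chains of collagens I, III, IV, V and VI. *Adgre1* of the macrophage list has no row under that symbol.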

Additional observations from a re-analysis of the deposited data

Results flagged for a closer look

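In each group of 4 libraries, a library whose gap to the nearest other, over the range of the group, passed Dixon's 95% limit was taken for a closer look. This was done for 176 groups of values (44 genes in 4 groups, with all 16 libraries) and marked 11, where chance marks about 8.8.

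KO replicate 10 accounted for 6 of them, all genes of cartilage: *Col2a1* (139.4 CPM, next highest KO library 3.77), *Col11a1* (29.9, next 12.9), *Col9a2* (4.879, next 0.524), *Col10a1* (3.373, next 0.196), *Col9a3* (3.308, next 0.287) and *Col9a1* (1.768, next 0.318). The same library was the only one with a count for *Matn1*, and it held the highest *Acan* (8.32 CPM) and *Ibsp* (17.4 CPM). The part of cartilage or bone in these values was not tested beyond leaving the library out.

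*Col3a1* was at 580.2 CPM in WT replicate 1, where the next WT library had 2027, and this is the library whose *Mtm1* count goes against its label. The *Col8a1* and *Col19a1* counts of that library lay near those of the wild-type libraries used. *Col4a1* was at 624.1 CPM in KO replicate 9 (next 487). *Col20a1* was at 6.322 CPM in WT replicate 4 (next 3.66) and at 9.558 CPM in WT + TAM replicate 5 (next 6.48). *Col10a1* was at 0.08611 CPM in WT + TAM replicate 5, where the other WT + TAM libraries were at 0.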

How the results depend on the processing

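The number of called collagens stayed within 1.5 times the reported count under 98 alternatives and left it under 31. In KO against WT (2 called) the count was 5 at a threshold of 0.05, 4 without the filter, 4 with DESeq2 and 1 to 2 with a library left out (1 without WT replicate 2 or 3 or KO replicate 10 or 11). In KO + TAM against WT + TAM (3) it was 10 at 0.05, 7 with library size only, 5 without the filter, 8 with DESeq2 and 1 to 3 with a library left out (1 without WT + TAM replicate 6, 7 or 8 or KO + TAM replicate 15). In KO + TAM against WT (7) it was 15 at 0.05, 11 without the filter, 14 with DESeq2, 3 with all 16 libraries and 4 to 7 with a library left out (4 without WT replicate 4). WT + TAM against WT (0) gave 2 at 0.05, 1 without the filter and 3 with DESeq2, and KO + TAM against KO (0) gave 1 with DESeq2. The genotype contrast (8) gave 18 at 0.05, 15 with library size only, 12 with DESeq2 and 4 to 9 with a library left out, 4 without WT replicate 3 and 5 without WT replicate 4, WT + TAM replicate 8 or KO + TAM replicate 15. The tamoxifen contrast (3) gave 1 with all 16 libraries and 2 to 3 with a library left out. Apart from the looser threshold, the cause of these moves was not tested.

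With library size only, the median of all genes moved to 0.33 in KO against WT, where genes called higher went from 53.1% to 88.0% of all calls, to 0.27 in KO + TAM against WT + TAM (50.9% to 88.4%), to 0.28 in KO + TAM against WT (46.3% to 84.1%) and to 0.31 in the genotype contrast (46.4% to 89.0%), where 14 collagens were called higher and 1 lower. Of 159 differences of the 20 collagens given in full, 39 in 17 genes changed sign under at least 1 alternative, and none of these was called. *Col1a1* in KO against WT, for example, ran from -0.67 to 0.05. For *Col6a6*, the tamoxifen effect in KO minus that in WT (0.02) became -0.047 with library size only, -0.12 with all 16 libraries and -0.15 to 0.19 with a library left out (-0.058 without WT replicate 4, -0.027 and -0.105 without WT + TAM replicate 5 and 6, -0.069 without KO replicate 10, -0.15 without KO + TAM replicate 13). For *Col8a1*, the tamoxifen contrast (-0.17) was -0.43 with all 16 libraries and, with a library left out, ran from -0.29 (KO replicate 11) to 0.026 (KO replicate 10). Without KO replicate 10 the median of all collagens in KO + TAM against KO went from -0.22 to 0.11. Of the medians by class, 201 recomputed values stayed close to the reported ones and 29 moved, all with library size only or with all 16 libraries, since leaving out a library was recomputed apart from these.

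No paired analysis was possible because the groups share no replicate numbers. Groups of 3 or 4 libraries limit what could be seen: the 95% interval of *Col1a1* in KO against WT spans -0.91 to 0.35, and genes under about 1 CPM, such as *Col6a4*, rest on few reads.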
